A study of Mus musculus with 3 samples.

Results

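The genes described here encode proteins that write, read, erase or move the marks and nucleosomes of chromatin. They were taken as every gene whose name in the first deposited scanner file began with Hdac, Sirt, Smarc, Cbx, Chd and a digit, Dnmt, Ezh, Suv, Hmgb, Hmgn, Mbd, H2af or H1f. That rule gave 53 of the 18172 gene names and features on the array, measured by 75 of its 20371 probes. The RNA came from 3 separate cultures of mouse ovarian surface epithelium (OSE), the single sheet of cells around the ovary, taken from superovulated and mated C57/Bl6 females. Part of each culture was kept epithelial in medium with 2.5% fetal bovine serum, and the other part was held for 1 week in 15% serum, in which the cells underwent an epithelial to mesenchymal transition. The comparison asks which transcripts differ between cells before and after that transition. Every culture that changed phenotype also changed serum, and the effects of these cannot be told apart. In such whole-culture RNA, fewer cells of a type and less RNA per cell cannot be told apart either.

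DNA in the nucleus is wrapped around histones, and the acetylation and methylation of histones and of DNA itself set how readily a gene is read. Deacetylases of the Hdac and Sirt families remove acetyl groups, and methyltransferases of the Dnmt, Ezh and Suv families add methyl groups. Most Cbx and Mbd proteins bind the methylated sites. Most Smarc and Chd proteins are ATPases or other subunits of complexes that use ATP to slide or evict nucleosomes. In epithelial to mesenchymal transition these enzymes are best known as partners of the Snail and Zeb repressors, which recruit deacetylases, Polycomb complexes and DNA methyltransferases to genes such as that of E-cadherin.

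A culture's epithelial and mesenchymal RNAs shared 2 arrays of a 2-colour Agilent platform with the dyes Cy3 and Cy5 exchanged, giving 6 arrays. Every value below is a log2 ratio of mesenchymal over epithelial RNA, so that 1 is a doubling and values below 0 are lower in mesenchymal cells. Means are over cultures, with the SD and n = 3 unless stated, each culture being the mean of its 2 arrays. A probe was called where limma's test of the ratio against 0 gave a Benjamini-Hochberg adjusted p under 0.05 over all 20185 probes tested. All 75 probes passed the filter on dim probes and were tested, 9 of them from 2 cultures. For Smarca2 the signal passed the 95th percentile of the negative control spots on only 1 array for the epithelial and 3 for the mesenchymal RNA. The other 74 probes passed it for 1 RNA on at least 4 arrays.

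The dye mattered as much as the cells for many probes. With all ratios expressed as mesenchymal over epithelial RNA, pairs of arrays with like dyes correlated at 0.81 to 0.93 over all probes, and pairs with opposite dyes at -0.53 to -0.14. The ratios of a culture's 2 arrays were therefore averaged, which cancels a probe's constant dye effect, and the direction of every ratio rests on the orientation stated in the names of the deposited arrays. The array of culture 3 with mesenchymal RNA in Cy3 stood apart, with another version of the annotation, another background method in the scanner software and 1639 outlier-flagged probes against 61 to 467 on the others. Surface epithelium markers were detected, and 7 of 8 fell, with log2 ratios of all 8 between -2.98 and -0.32. Of 23 genes of dividing cells, 4 rose and 1 fell, with a median of 0.09 and a range of -0.39 to 0.83, and their part in the chromatin results was not tested. Markers of theca, leukocytes and endothelium gave 0 calls in limma among 4, 4 and 3 measured genes (1, 0 and 1 at an unadjusted p under 0.05), and 1 of 5 granulosa markers fell.

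Of the 75 chromatin probes, 15 were called, or 20%, against 11.3% of all probes tested. They belonged to 15 genes, with 7 probes called higher and 8 called lower. The call is that of the probe: other probes of Cbx5 and Suv39h1, both among the 7, had the opposite sign. The shares among all probes were 5.6% called higher and 5.66% called lower. Of the 15 called probes, 11 had the same sign on all 6 arrays, a requirement that 6.85% of all probes met together with the call. By the brightest probe of each gene, 6 genes were called higher and 6 lower, where 11.4% of all features were called. The largest change was 1.66-fold, and none reached 2-fold, which 353 of all probes, or 1.75%, did with a call. The median absolute log2 ratio was 0.15 over the 75 probes and 0.10 over all probes. The median SD over cultures was also larger, at 0.17 for the 75 probes and 0.13 for all. The median over the 75 probes was -0.03, beside -0.003 over all probes, with 33 above 0 and 42 below.

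**Figure D1:**
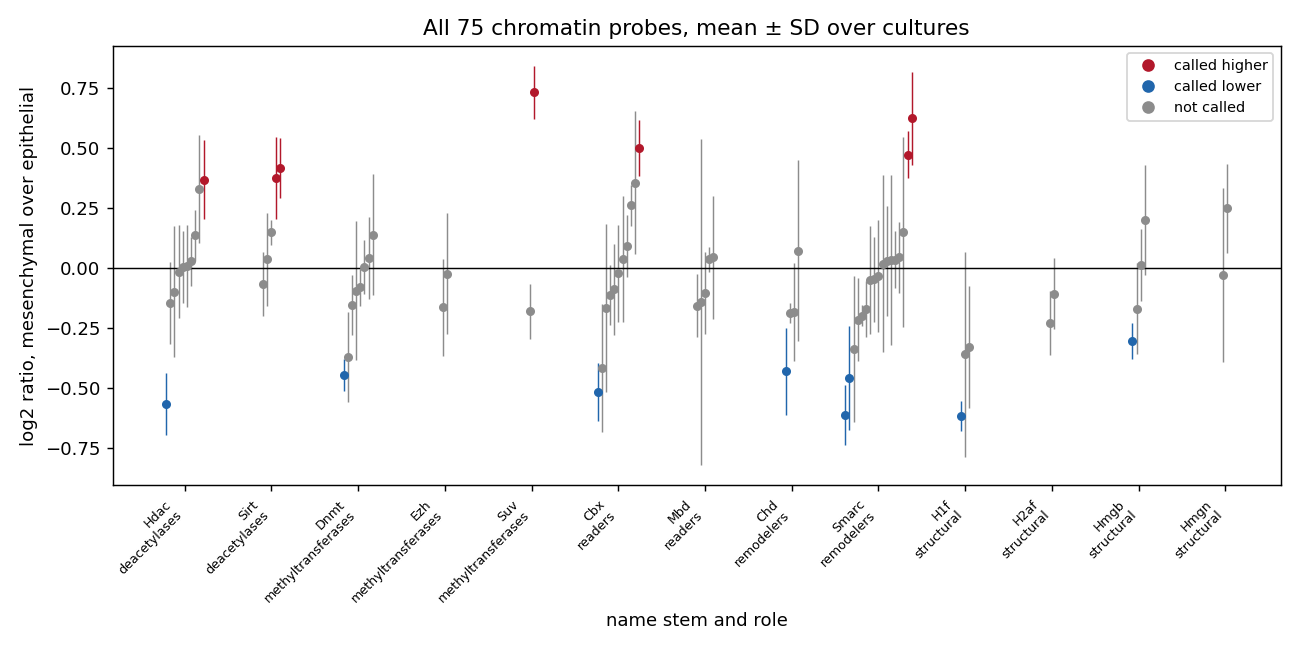
Mean log2 ratio of mesenchymal over epithelial RNA (y axis) for each of the 75 chromatin probes, grouped by name stem and role (x axis), with bars of 1 SD over 3 cultures (2 for 9 probes). The 7 called higher and 8 called lower probes lie between -0.61 and 0.73 and are spread over 9 of the 13 stems, with 0 calls for Ezh, Mbd, Hmgn and H2af.

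These counts moved with each culture. Without culture 1, 35 of the 67 chromatin probes tested were called, or 52.2%, where 32.3% of all probes passed. Without culture 2 it was 7 of 70, or 10%, where 6.41% of all passed. Without culture 3 it was 1 of 70, or 1.43%, below the 4.20% of all that passed. Over the probes measured in both cultures of a pair, the correlation of ratios was 0.82 between cultures 2 and 3 (67 probes). It was 0.53 between 1 and 3 (70 probes) and 0.37 between 1 and 2 (70 probes). Over all probes the same pairs had the same order, with 0.88, 0.63 and 0.59. These values share dyes and probes and are given as a description. With median centring in place of loess, 6 probes were called higher and 11 lower. When the RNAs of a culture were treated as unpaired samples, 0 of the chromatin probes and 256 of all probes passed in limma. This fit also used the intensity of each RNA in place of ratios, after quantile normalization of brightness between arrays. At an unadjusted p under 0.05, that fit passed 12 of the 75 and the paired test 25.

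Promoter sequence is shown for the pair of rising and the pair of falling genes with the largest change among those with the same sign on every array and a single start site in the RefSeq promoter table of build GRCm38.p6. Each line is the 250 bases before the start, 5′ to 3′ on the gene's strand. Capitals mark the GC box GGGCGG, the CCAAT box, the E-box CACCTG of the kind that Snail and Zeb proteins bind and the TATA box TATAAA, searched on both strands, with overlapping matches merged. The Smarcal1 window is chr1:72583001-72583250 on the plus strand, Sirt1 chr10:63339036-63339285 on the minus strand, H1f8 (on the array as H1fo-pending) chr6:115944681-115944930 on the plus strand and Smarcd3 chr5:24602003-24602252 on the minus strand.
Smarcal1: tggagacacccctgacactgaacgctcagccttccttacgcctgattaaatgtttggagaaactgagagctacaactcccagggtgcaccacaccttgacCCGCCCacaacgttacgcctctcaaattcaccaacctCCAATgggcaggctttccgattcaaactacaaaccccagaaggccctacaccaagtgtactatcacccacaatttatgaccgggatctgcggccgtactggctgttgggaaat
Sirt1: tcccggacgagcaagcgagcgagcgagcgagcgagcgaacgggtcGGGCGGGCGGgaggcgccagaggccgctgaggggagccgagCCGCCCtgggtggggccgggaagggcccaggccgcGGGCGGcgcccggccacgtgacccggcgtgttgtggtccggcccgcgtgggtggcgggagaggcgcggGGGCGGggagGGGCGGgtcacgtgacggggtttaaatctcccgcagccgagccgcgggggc
H1f8: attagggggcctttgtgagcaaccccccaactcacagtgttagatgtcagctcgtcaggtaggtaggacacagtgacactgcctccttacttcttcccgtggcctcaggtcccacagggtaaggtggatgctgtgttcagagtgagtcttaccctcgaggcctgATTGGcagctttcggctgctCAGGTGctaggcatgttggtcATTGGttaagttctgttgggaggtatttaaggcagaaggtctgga
Smarcd3: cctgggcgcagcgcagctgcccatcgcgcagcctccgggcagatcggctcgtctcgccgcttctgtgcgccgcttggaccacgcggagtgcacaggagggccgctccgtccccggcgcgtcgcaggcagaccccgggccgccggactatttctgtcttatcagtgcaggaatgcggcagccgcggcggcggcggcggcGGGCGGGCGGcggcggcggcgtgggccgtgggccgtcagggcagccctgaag

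The Sirt1 and Smarcd3 windows were dense in CpG, with 39 and 38 CpG dinucleotides, against 9 in Smarcal1 and 4 in H1f8. The Sirt1 window held 6 GC boxes and that of Smarcd3 held 2, in both cases with a pair that overlaps. Smarcal1 had 1 GC box and 1 CCAAT box, and H1f8 had 2 CCAAT boxes, 1 CACCTG and no GC box. None of the 4 windows held TATAAA.

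Of the 53 genes, 42 had at least 1 window in the table, 59 windows in all. GGGCGG stood in 69.5% of them, against 32.7% of all 32851 windows of the table, CCAAT in 32.2% against 33.9%, CACCTG in 16.9% against 17.2% and TATAAA in 3.39% against 12.4%. The median window of a chromatin gene held 19 CpG, and that of all windows 6. Among the called genes, CCAAT stood in 6 of the 10 windows of the 7 with a probe called higher and in 1 of the 12 windows of 6 with a probe called lower, and GGGCGG in 9 of 10 and 6 of 12. Several windows belong to alternative starts of the same gene and overlap, so these are descriptions of letters with no test. CACCTG was in 2 of 10 and 1 of 12. In the 37 windows of uncalled genes, CCAAT stood in 12, GGGCGG in 26 and CACCTG in 7.

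Of the 15 deacetylase probes, 4 were called, 3 higher and 1 lower, or 26.7%, against 11.3% of all probes. Of the 5 probes of the class I enzymes Hdac1, Hdac2 and Hdac3, 0 was called, and 0 passed an unadjusted p under 0.05. Hdac7a (now Hdac7), a class II enzyme that acts with transcription factors as a corepressor, fell most. Its probe A_65_P16463 gave -0.59, -0.43 and -0.68 in cultures 1, 2 and 3, and -1.01 to -0.16 over the 6 arrays. All arrays were below 0, and those with mesenchymal RNA in Cy3 were the lowest of each culture. The mean was -0.57 ± 0.13, or 1.48-fold lower (adjusted p = 0.00873, limma), and the call was lost without culture 3. The second Hdac7a probe, A_65_P15793, gave -0.10 ± 0.27 and was not called.

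Sirt1, the nuclear sirtuin that uses NAD to deacetylate histones and transcription factors, rose by 0.42 ± 0.12 (adjusted p = 0.0236, limma) by its brighter probe A_65_P07617. The cultures gave 0.45, 0.52 and 0.28, and the arrays 0.12 to 0.83, so that all lay above 0. The other Sirt1 probe, measured in 2 cultures, gave 0.19 and 0.11 and was not called. Sirt3, a mitochondrial sirtuin, rose by 0.38 ± 0.17 (adjusted p = 0.0469, limma), but its arrays divided by dye. The 3 with mesenchymal RNA in Cy5 gave -0.37, -0.14 and -0.22 and the 3 with it in Cy3 gave 0.74, 1.15 and 1.09, a dye effect of -0.62.

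Hdac6, the cytoplasmic enzyme best known for deacetylating tubulin, rose by 0.37 ± 0.16 (adjusted p = 0.0486, limma). Its cultures gave 0.53, 0.37 and 0.20, and its arrays 0.16 to 0.69, all above 0. The calls of Sirt1, Sirt3 and Hdac6 were each lost without culture 2 and without culture 3, and those of Sirt3 and Hdac6 also without the deviating array. Hdac3, a nuclear class I enzyme of corepressor complexes, had 3 probes, whose means lay between 0.01 and 0.03. The other uncalled deacetylase probes ranged from -0.15 (Hdac10) to 0.33 (Hdac5), and the Hdac1 probe carries a gene ID that now belongs to a pseudogene of Hdac1.

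Of the 12 methyltransferase probes, 1 was called higher and 1 lower, or 16.7%, against 11.3% of all probes. Suv39h1, which methylates histones in silent heterochromatin, had the largest ratio of all 75 probes, by probe A_65_P02024, measured in cultures 1 and 3 alone. These gave 0.65 and 0.81, a mean of 0.73 ± 0.11 (n = 2, adjusted p = 0.0118, limma). The arrays with mesenchymal RNA in Cy5 gave 0.37 and -0.01, and those with it in Cy3 gave 0.94, 1.20 and 1.63, so the size differed between dyes while 4 of 5 lay above 0. The dimmer Suv39h1 probe, A_65_P04239, gave -0.10, -0.31 and -0.13 (mean -0.18 ± 0.11, not called), the opposite sign. Their spread of 0.91 was the widest between probes of a chromatin gene.

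Dnmt3a, which sets new DNA methylation, fell by 0.44 ± 0.07 (adjusted p = 0.0134, limma) by its dimmer probe A_65_P18512, with -0.52, -0.40 and -0.41 in the 3 cultures. Of its arrays 5 were below 0, from -0.90 to -0.14, and that of culture 2 with mesenchymal RNA in Cy3 was at 0.06. Its brighter probe gave 0.23, -0.33 and -0.17, with a mean of -0.09 ± 0.29 that was not called. The Dnmt3a call did not survive leaving out culture 2 or culture 3, nor in the fit that left out the deviating array.

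Dnmt1, which copies DNA methylation after replication, missed the threshold. Its brighter probe gave -0.15, -0.48 and -0.47 (mean -0.37 ± 0.19, adjusted p = 0.0574, limma), with 5 of 6 arrays below 0, and its other probe, in 2 cultures, -0.24 and -0.07. Dnmt3b, the other de novo enzyme, gave -0.08 ± 0.08 by its brighter probe. Ezh2, the Polycomb enzyme that methylates histones of silenced developmental genes, had a mean of -0.02 ± 0.25. Each of its arrays was far from 0 and followed the dye, with -1.61 to -1.20 where mesenchymal RNA was in Cy5 and 0.93 to 1.66 where it was in Cy3. Averaged by culture, these gave -0.28, -0.02 and 0.23. Its relative Ezh1 gave -0.16 ± 0.20.

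Of the 16 probes for Cbx and Mbd proteins, here grouped as readers, 1 was called higher and 1 lower. That was 12.5%, close to the 11.3% of all probes. Cbx5, a heterochromatin protein that binds the mark made by Suv39h1, was called higher by 1 of its 4 probes. Probe A_65_P08941 gave 0.63, 0.42 and 0.45 (mean 0.50 ± 0.12, adjusted p = 0.0121, limma), with 0.17 to 1.00 over the arrays, and the call was lost without culture 3. The other 3 probes gave means of 0.36, -0.11 and -0.17 with SDs of 0.30, 0.12 and 0.35 and were not called. The brightest of the 4 was the one at -0.11, so the gene has no single direction in these data. The probes for Cbx1, Cbx2, Cbx3 and Cbx8 ranged from -0.09 to 0.26 and were not called.

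The Mbd proteins share a methyl-CpG-binding domain, and 0 of their 5 probes was called. Mbd2 gave -0.16 ± 0.13 and Mbd3, which does not favour methylated DNA and is a subunit of the NuRD deacetylase and remodelling complex, gave 0.04 ± 0.26. Among the genes chosen here, NuRD had 5 probes, those of Hdac1, Hdac2, Mbd2, Mbd3 and Chd4, and 0 was called. For both groups of probes the count at an unadjusted p under 0.05 in limma was 0 as well. Of other NuRD subunits on the array, Gatad2a (-0.27), Gatad2b (-0.41) and Mta3 (-0.18) did pass that level. Mta2, Rbbp4 and Rbbp7 did not, and none of these was called.

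Of the 21 remodeler probes, 2 rose and 3 fell, or 23.8% called, against 11.3% of all probes. Smarca1, an ATPase of the ISWI kind that spaces nucleosomes, rose by 0.62 ± 0.19 (adjusted p = 0.0106, limma) by probe A_65_P13362, and its cultures gave 0.50, 0.84 and 0.53. The arrays were at -0.63, -0.55 and -0.39 with mesenchymal RNA in Cy5 and at 1.63, 2.24 and 1.45 with it in Cy3. Its dye effect of -1.15 was thus larger than its change, and the direction holds only in the mean of both orientations. The other Smarca1 probe gave 0.04 ± 0.15. The call was lost without culture 3.

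Smarcal1, which reanneals DNA at stalled replication forks, had the smallest SD of the 7 called rises. Its arrays of culture 1 gave 0.56 and 0.27, those of culture 2 gave 0.73 and 0.44 and those of culture 3 gave 0.63 and 0.21, all above 0. The mean was 0.47 ± 0.10, or 1.39-fold (adjusted p = 0.0128, limma), and the call was lost without culture 2 and without culture 3.

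Smarcd3, a subunit of the SWI/SNF complex best known from heart and muscle development, fell by 0.61 ± 0.12 (adjusted p = 0.00642, limma), or 1.53-fold. Its cultures gave -0.54, -0.54 and -0.76, and its arrays ranged from -0.88 to -0.38 with a dye effect of 0.01. No array came near 0, and the call was lost only without culture 3 among the cultures. Smarca4, the ATPase of the same complex, fell by 0.46 ± 0.22 (adjusted p = 0.0361, limma) by its dimmer probe A_65_P02385, with -0.21, -0.59 and -0.57 in the cultures. Its arrays ranged from -0.75 to -0.01. Its brighter probe gave -0.05, -0.17 and -0.29 (mean -0.17 ± 0.12) and was not called, and the call of the other was lost without culture 2 and without culture 3.

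Over the SWI/SNF subunits with a Smarc name on the array, 2 of 11 probes fell and 0 rose, where 11.3% of all probes were called. The 9 uncalled probes ranged from -0.34 ± 0.30 for Smarcc1 to 0.15 ± 0.39 for the brighter of the 2 Smarcb1 probes. Of them, 3 lay above 0, both Smarcb1 probes and that of Smarca2. The 6 below 0 were those of Smarcc1, Smarcf1 (now Arid1a), Smarcd1 and the brighter Smarca4 probe, and both of Smarcd2. Subunits under other names were read with the 19 other remodelling subunits below, of which 0 was called.

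Chd2, a remodeler with chromodomains, fell by 0.43 ± 0.18 (adjusted p = 0.0337, limma), with -0.22, -0.50 and -0.56 in the cultures and -0.78 to -0.09 over the arrays. The call depended on cultures 2 and 3 and on the deviating array, and was lost without any one of them. Chd4, the NuRD ATPase, gave 0.51, -0.11 and -0.18 (mean 0.07 ± 0.38), so its cultures differed in sign. Chd1l, linked to DNA repair, gave -0.18 ± 0.20.

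Of the 11 probes for structural chromatin proteins, 2 fell and 0 rose, or 18.2% called, against 11.3% of all probes. H1fo-pending, now H1f8, is the linker histone known from oocytes, and it had the smallest adjusted p of all the chromatin probes. In the annotation of the deviating array this probe is named C86609 and not by the gene. Its cultures gave -0.59, -0.69 and -0.57, a mean of -0.61 ± 0.06 (adjusted p = 0.00438, limma), or 1.53-fold lower. The arrays with mesenchymal RNA in Cy5 gave -0.04, -0.41 and -0.46 and those with it in Cy3 gave -1.15, -0.96 and -0.67, all below 0. The call held without any of the cultures in turn.

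Hmgb2l1, now Hmgxb4, an HMG-box protein, fell by 0.30 ± 0.07 (adjusted p = 0.0491, limma) by its brighter probe, with all 6 arrays between -0.56 and -0.02. The call of this probe was lost in the fits without culture 2, culture 3 or the deviating array. The dimmer probe gave -0.17 ± 0.19 and was not called. H1f0, the linker histone of resting and differentiated cells, had -0.33 ± 0.25 and -0.36 ± 0.43 by its 2 probes, neither called. The array values of the first followed the dye, from 0.00 to 0.48 with mesenchymal RNA in Cy5 and from -1.15 to -0.61 with it in Cy3, and the second ran the other way.

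Hmgn1, a nucleosome binding protein, gave 0.25 ± 0.18 (n = 2). Its relative Hmgn2 gave -0.03 ± 0.36 and was saturated on 1 array for the epithelial and 2 for the mesenchymal RNA. The histone variant H2afy (now Macroh2a1), enriched on the inactive X chromosome, gave -0.23 ± 0.13. H2afx (now H2ax), the variant phosphorylated at DNA breaks, gave -0.11 ± 0.15, and Hmgb3 gave 0.20 ± 0.23. None of these 5 was called by limma, and 1 of their probes, that of H2afy, passed an unadjusted p under 0.05.

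**Figure D2:**
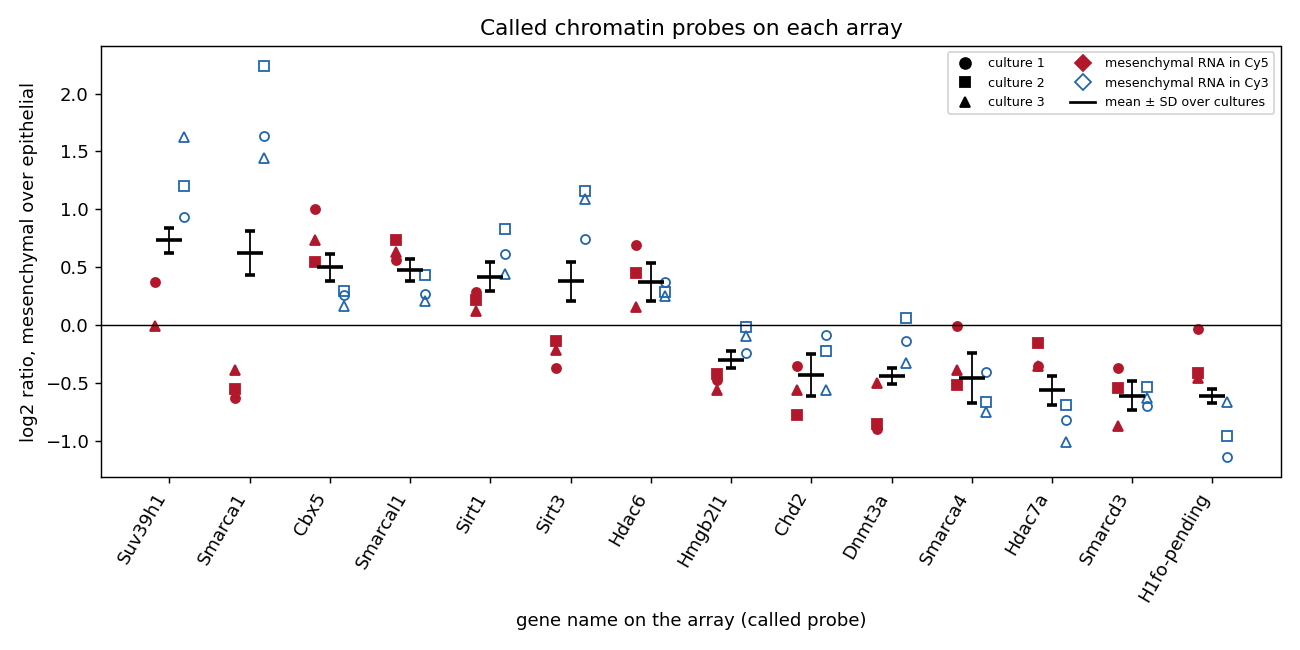
Log2 ratio of mesenchymal over epithelial RNA (y axis) on each array for 14 of the 15 called chromatin probes (x axis), with filled red symbols for mesenchymal RNA in Cy5, open blue symbols for Cy3, a shape for each culture and black bars for the mean ± SD over cultures. For Smarca1 and Sirt3 the red symbols lie below 0 and the blue ones above it, while 10 of the 14 probes shown keep the same sign on all 6 arrays.

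Probes of the same gene often differed. Of the 53 genes, 18 had several probes, 40 in all. In 9 of these genes a probe was called, and in 0 was every probe called. All probes of the gene had the same sign in 7 of those 9 genes and in 14 of the 18. The called probe was the brightest of its gene in 6 of the 9. The median spread between the probe means of a gene was 0.17. The names give no transcript isoform, and whether the probes of a gene read different transcripts was not tested.

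**Figure D3:**
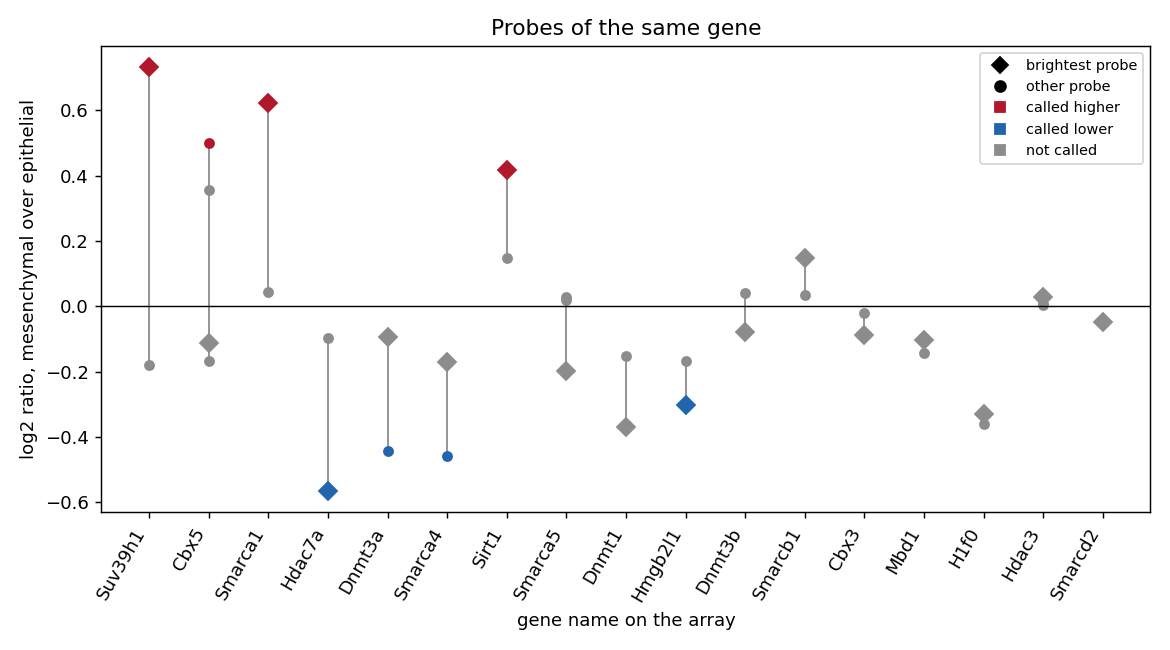
Mean log2 ratio of mesenchymal over epithelial RNA (y axis) of every probe of 17 of the 18 chromatin genes with several probes (x axis), ordered by the spread between probes. Diamonds are the brightest probe of a gene, red and blue mark probes called higher and lower, and the spread runs from 0.91 for Suv39h1 to 0.002 for Smarcd2.

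The dye effect of a probe, the mean log2 ratio of Cy5 over Cy3 with the cells balanced, was larger than its change for 48 of the 75 chromatin probes and for 14238 of the 20185 probes in all. It passed limma's test at the same threshold for 51 of the 75 and for 11638 of the 20185. Among the 15 called probes it was larger than the change for 2, Smarca1 and Sirt3. Some uncalled probes had the largest dye effects, with -1.57 for the Smarca5 probe A_65_P05947 and -1.41 for Ezh2.

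**Figure D4:**
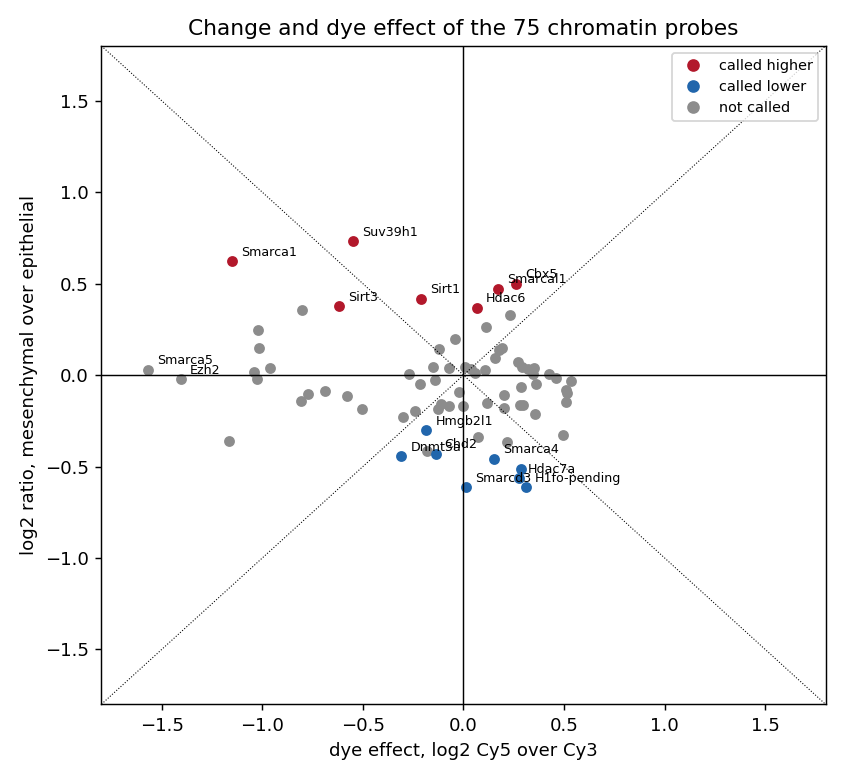
Mean log2 ratio of mesenchymal over epithelial RNA (y axis) against the dye effect, log2 of Cy5 over Cy3 (x axis), for the 75 chromatin probes. Points left or right of the dotted diagonals have a dye effect larger than their change, which holds for 48 probes and, among the called ones, for Smarca1 and Sirt3.

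Other chromatin genes were read by their brightest probe from a list of 207 symbols, of which 126 were measured. Of these 7 rose and 3 fell, a share of 7.94%, against 11.4% of all features. None of 22 Polycomb and trithorax partners, 12 NuRD, Sin3 and corepressor partners, 9 histone demethylases or 19 other remodelling subunits was called by limma, and 3, 5, 1 and 2 of them passed an unadjusted p under 0.05. Hmga2, an architectural protein that bends DNA, gave 2.30, 1.81 and 1.58 in the cultures, a mean of 1.90 ± 0.37 (adjusted p = 0.00101, limma), above the ratio of each of the 75 probes, with the mesenchymal RNA saturated on 2 arrays. Prmt2, an arginine methyltransferase, rose by 0.72 ± 0.27 (adjusted p = 0.0122). Ehmt2, a histone lysine methyltransferase of silent genes, rose by 0.35 ± 0.13 (adjusted p = 0.0449), and Ing4, a subunit of an acetyltransferase complex, by 0.30 ± 0.05 (adjusted p = 0.0446). Smyd1, a methyltransferase known from muscle, fell by 0.50 ± 0.18 (adjusted p = 0.0210). These 5 had the same sign on all 6 arrays.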

How the data were processed

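Agilent scanner files of 6 arrays and a value table of 3 cultures were used. Per the file headers, the intensities are spot means and local backgrounds from Agilent's Feature Extraction software, linear and unnormalised. The log10 ratios in the authors' value table equal the mean of a culture's 2 turned array ratios (largest difference 0.0064), with medians of 0.00397, -0.0123 and -0.00379. The submitters' processing notes name limma, with no settings. Intensities were corrected by normexp (offset 50), normalised by loess within arrays, turned, averaged by culture and tested with limma 3.58.1 under R 4.3.3, leaving out control and outlier-flagged spots. Both arrays of a culture and at least 2 cultures were required, and a well-above-background flag for the same RNA on at least 4 arrays. That filter is weak: 26.5% to 81.5% of negative control spots carried the flag. The number of arrays limits the precision.

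RNAs are paired by design: both parts of a culture shared arrays. Gene IDs matched 52 of 53 names to RefSeq symbols (GRCm38.p6), 44 of them equal. In the annotation of the deviating array, the called probes of H1fo-pending, Cbx5, Dnmt3a, Chd2 and Hmgb2l1 carry other names than these. Called genes are named, except 1 whose results are not reported here, with array or culture values for the 12 largest changes, and the 2 genes with the brightest probes in stems with fewer than 2 called genes. Some other members were named after their values were seen. The members and lists were chosen with earlier results of these data known. Steps were tested on simulated data.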

Additional observations from a re-analysis of the deposited data

How the results depend on the processing

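Of 15 called chromatin probes (7 higher, 8 lower; 6 and 6 genes by the brightest probe), leaving out 1 culture left 1 to 35 (0 to 11 higher, 1 to 24 lower; 0 to 9 and 1 to 18 by the brightest), and 809 to 5875 of all probes instead of 2272 (376 to 3271 higher, 433 to 2604 lower). Of the other chromatin genes, 1 to 26 were then higher and 0 to 19 lower, against 7 and 3. The unpaired fit, with no replicate block, called 0 chromatin probes and 256 of all (115 higher, 141 lower), and 1 and 0 other chromatin genes. An adjusted p under 0.01 left 3 chromatin probes (0 higher, 3 lower; 0 and 3 by the brightest), 963 of all (439, 524), and 1 and 0 others. At an adjusted p under 0.01 the share called was 4% of the chromatin probes and 4.77% of all. The 2-fold threshold left 0, 353 of all (135, 218), and 1 and 0 others. Trend and robust variance gave 9 (4 higher, 5 lower; 3 higher by the brightest), 720 of all higher, and 3 and 1 others. Scale normalization between arrays gave 3600 of all (1930 lower) and 12 others lower. Median centring gave 5 others lower and the 6-array fit 6. The 5-array fit, without the deviating array, gave 5 lower chromatin probes. With only the arrays with epithelial RNA in Cy3, 40 chromatin probes passed (17, 23; 10 and 15 by the brightest), 8211 of all (3515, 4696), and 14 and 37 others. With only those with it in Cy5 these were 30 (16, 14; 11 and 11), 6898 (4189, 2709), and 35 and 15. Among named genes called there or in the full test, signs reversed in single orientations for Dnmt3b (0.43), Hmgn1 (-0.77), Sirt3 (-0.24) and Smarca1 (-0.53) with epithelial RNA in Cy3, and for Ezh2 (1.38) with it in Cy5. Genes called in neither also changed sign: Ezh1 (0.14), H1f0 (0.17) and H2afx (0.09) with it in Cy3, and Chd4 (-0.20), H2afy (0.07) and Hmgn2 (0.11) with it in Cy5. The cause was not tested in any of these. Over the 19 other settings, leaving aside the stricter thresholds and single orientations, Suv39h1 and H1fo-pending lost their calls only in the unpaired fit. However, Suv39h1 was tested in only 16 of the 19. It could not be measured without culture 1 or 3, or where all 3 cultures were required. In the same 19 Hdac6 lost its call in 9, Hmgb2l1 in 7 and Sirt3 in 6, while Dnmt1 gained one in 6. In each single orientation 9 of the 15 called probes passed, whatever their sign. The share passing was 53.3% of the chromatin and 40.4% of all probes with epithelial RNA in Cy3. It was 40% and 34.0% with it in Cy5. With epithelial RNA in Cy3 alone, H1fo-pending and Suv39h1 were among the calls lost. With it in Cy5, those of Cbx5, Chd2, Dnmt3a, Hdac6 and Hmgb2l1 were among the calls lost, while Dnmt1 passed. All 15 calls held with outlier-flagged spots kept. They also held with no filter on dim probes and with a filter at the negative controls chosen after seeing the data. These filter settings left the ratios of the called probes unchanged, so they could alter a call only through the other probes tested. Sensitivity is limited by 3 cultures.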
